A study of Homo sapiens with 6 samples.

Results

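The 48 genes described here take part in the interferon response or in the presentation of peptides by major histocompatibility complex (MHC) class I. They were read from a gene table by their symbols alone, and all 48 were found among the 46427 genes of that table. Of these, 11 belong to class I antigen presentation: the chains *HLA-B*, *HLA-C*, *HLA-E*, *HLA-F* and *B2M*, the peptide transporter and loading genes *TAP1*, *TAP2* and *TAPBP*, the trimming enzymes *ERAP1* and *ERAP2*, and the transactivator *NLRC5*. The other 37 are interferon-stimulated genes: transcription factors, antiviral effectors and sensors. The RNA came from HCT116, a human colorectal carcinoma cell line, either as the parental cells with wild type *ZKSCAN3* (*ZK3*-WT, 3 libraries) or as *ZKSCAN3* knockout cells (*ZK3*-KO, 3 libraries), and the study asked which genes depend on the zinc finger transcription factor ZKSCAN3. In the knockout, CRISPR/Cas9 had been directed at the first exon to remove the start codon, on both alleles. The edited cells had been selected with puromycin and grown from a single cell, whereas the parental cells had not, so the genotype cannot be told apart from the clone and its selection. All cells were grown in DMEM with fetal bovine serum, and no interferon or other agent is named for either group. The libraries of a group are biological triplicates of 1 cell population, so the tests measure the spread between cultures and not between clones.

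Interferons bind receptors on the cell surface and switch on the kinases JAK1, TYK2 and JAK2, which pass the signal on to transcription factors. After type I and type III interferon, the complex ISGF3, to which STAT2 and IRF9 belong, binds the interferon-stimulated response element (ISRE). Genes that respond to interferon gamma often carry the gamma-activated site (GAS). The induced genes block viral entry, translation and replication, and many are also transcribed at a low level in cells that meet no interferon. MHC class I carries peptides from inside the cell to its surface, where T cells inspect them, and its genes are raised by interferons through NLRC5, IRF1 and the ISRE. In colorectal cancer, class I levels and interferon signaling are studied for their part in recognition of the tumor by the immune system.

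Between 60827060 and 69739215 reads were counted per library. Levels are given as CPM, the reads of a gene scaled to the library size with edgeR's TMM factors, always in the order of replicates 1, 2 and 3. Fold changes are log2 ratios of *ZK3*-KO to *ZK3*-WT cells. Their false discovery rate (FDR) is from edgeR's quasi-likelihood test, called at 0.05 over the 18366 genes that passed an expression filter. The standard error (SE) was derived from that test, as the size of the log2 fold change divided by the square root of the F statistic. The targeted gene had 28.1, 23.4 and 19.8 CPM in *ZK3*-WT cells and 25.4, 24.9 and 13.6 CPM in *ZK3*-KO cells, with overlapping groups, and reads per gene do not show whether a start codon is there. *ZK3*-KO replicate 3 stood apart: the correlation of its log2 CPM across genes was 0.973 and 0.961 with *ZK3*-KO replicates 1 and 2, which had 0.993 between them, against 0.991 to 0.995 among *ZK3*-WT libraries. Its correlation with *ZK3*-WT replicates 1, 2 and 3 was 0.968, 0.968 and 0.978, so the library closest to it was a *ZK3*-WT one. Of 8 epithelial markers, 7 were counted in every library, and *VIL1* was at or near 0. Their summed level was 3090 to 3950 CPM in *ZK3*-WT libraries and 3057, 2824 and 5850 CPM in *ZK3*-KO libraries. The 6 leukocyte markers summed to 0.274 to 0.493 CPM, with *PTPRC* at 0 in all libraries. The 6 stromal and endothelial markers summed to 45.2 to 58.2 CPM in *ZK3*-WT and to 50.8, 32.7 and 100.1 CPM in *ZK3*-KO libraries, nearly all of it *COL1A1*. The part of these values in the results below was not tested. In bulk RNA, fewer cells that express a gene and less RNA per cell cannot be told apart.

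The letters to which ISGF3 is known to bind stood in front of many of the 48 genes, on both sides of the threshold of the test. Promoter sequence was taken from RefSeq on GRCh38.p14 for 40 of the 48 genes, and the 250 bases before each listed start were searched on both strands for GAAA, any 2 bases and GAAA again (the core of the ISRE) and for TTCNNNGAA (the GAS), where overlapping matches were each counted. At least 1 of its listed starts had the ISRE letters in 26 of the 40 genes (65.0%), against 3.71% of the 27305 genes in the RefSeq table. The GAS letters were found in 11 of the 40 genes (27.5%), against 8.09% of all genes. By class, the ISRE letters were found in 6 of 9 antigen presentation genes and in 20 of 31 interferon-stimulated genes. Of the members that were lower in *ZK3*-KO cells by the test below, 10 of 12 with a sequence had the ISRE letters, and of the tested members that were not called, 14 of 24 had them. A match is a description of the letters and not of binding. The stretches below are shown because they carry those letters in 6 members that fell in *ZK3*-KO cells (*IFI6*, *BST2*, *SAMD9*, *IFI44*, *IFITM3* and *TAPBP*) and in 4 that were not called (*B2M*, *PARP14*, *IFIT5* and *ISG20*). The ISRE letters or their reverse complement are in capitals, and each sequence reads 5′ to 3′ along the strand of its gene.
IFI6 (chr1:27672276-27672348, strand -, bases 156 to 84 before the start): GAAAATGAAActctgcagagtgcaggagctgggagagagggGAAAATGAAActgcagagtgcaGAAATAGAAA
BST2 (chr19:17405723-17405782, strand -, bases 152 to 93 before the start): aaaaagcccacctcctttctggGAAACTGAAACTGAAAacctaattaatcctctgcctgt
SAMD9 (chr7:93118081-93118140, strand -, bases 161 to 102 before the start): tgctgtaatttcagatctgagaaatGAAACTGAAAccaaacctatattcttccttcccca
IFI44 (chr1:78649729-78649788, strand +, bases 60 to 1 before the start): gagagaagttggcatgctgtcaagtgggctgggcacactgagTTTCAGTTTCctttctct
IFITM3 (chr11:320869-320928, strand -, bases 68 to 9 before the start): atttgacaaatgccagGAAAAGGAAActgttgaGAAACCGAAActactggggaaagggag
TAPBP (chr6:33314079-33314138, strand -, bases 60 to 1 before the start): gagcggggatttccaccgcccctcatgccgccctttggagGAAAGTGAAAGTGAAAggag
B2M (chr15:44711351-44711410, strand +, bases 166 to 107 before the start): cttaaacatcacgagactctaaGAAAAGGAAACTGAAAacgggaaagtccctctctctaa
PARP14 (chr3:122680779-122680838, strand +, bases 60 to 1 before the start): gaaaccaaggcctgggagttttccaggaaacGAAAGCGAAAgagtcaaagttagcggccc
IFIT5 (chr10:89414508-89414567, strand +, bases 60 to 1 before the start): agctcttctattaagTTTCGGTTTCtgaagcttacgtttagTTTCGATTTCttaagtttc
ISG20 (chr15:88638922-88638981, strand +, bases 94 to 35 before the start): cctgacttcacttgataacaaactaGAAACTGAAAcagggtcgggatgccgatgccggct
The letters began 20 and 14 bases before the start in *TAPBP*, 18 in *IFI44* and 29 in *PARP14*, and farther away in *BST2* (130 and 124 bases), *SAMD9* (136) and *B2M* (144 and 138). In 6 members a pair of matches shared 4 bases, so that 3 GAAA blocks (or their reverse complement) stood close together, and of these *BST2* and *TAPBP* were called and *B2M*, *TAP1*, *ISG15* and *IFIH1* were not.

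Fewer reads were counted on the 48 genes in every *ZK3*-KO library than in any *ZK3*-WT library. They took 0.237%, 0.229% and 0.221% of all reads in *ZK3*-WT cells and 0.146%, 0.133% and 0.171% in *ZK3*-KO cells, or 0.229 ± 0.0077% against 0.15 ± 0.019% (SD, n = 3). Of the 44 members that passed the expression filter, 14 fell in *ZK3*-KO cells and none rose, whereas 1.23% of all tested genes fell, 0.817% rose and 2.05% did either. At an unadjusted p under 0.05, 27 of the 44 members and 3371 of the 18366 genes were counted. The log2 fold change was below 0 for 42 of the 44 members, with a median of -0.90, against a median of 0.018 over all tested genes. All 3 *ZK3*-KO libraries lay below all 3 *ZK3*-WT libraries for 31 of the 44 members, where the same held for 13.8% of all tested genes, and above them for 1 member, where it held for 12.7%. With 3 libraries against 3, an exact permutation test cannot give a p below 0.10, so these counts are a description. The members were also chosen with earlier results of these data known, so their shares cannot be read as a test against all genes. The 4 members that did not pass the filter were *IFI44L*, *SAMD9L*, *RSAD2* and *XAF1*. *OAS1* reached the level of the filter in 3 *ZK3*-WT and 0 *ZK3*-KO libraries, *IFI44* in 3 and 1, and *OAS2* and *CMPK2* in 3 and 2. These genes thus passed through their *ZK3*-WT libraries, and the calls of *OAS1* and *IFI44* are not independent of the filter.

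**Figure D1:**
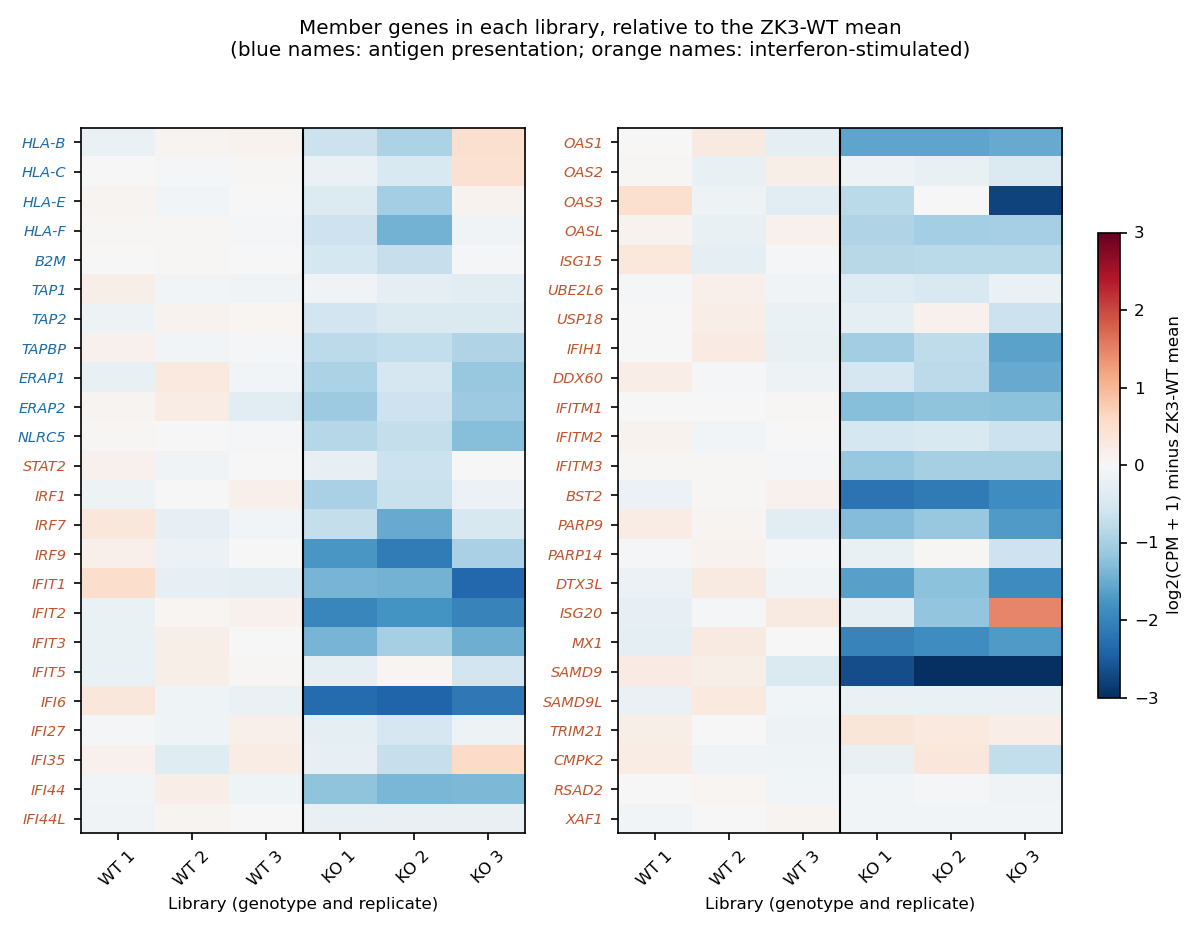
Each cell gives the log2(CPM + 1) of 1 of the 48 genes in 1 library minus the mean of the 3 *ZK3*-WT libraries, with blue below and red above 0; colours are full at a difference of 3, which *SAMD9* passes in *ZK3*-KO replicates 2 and 3. Nearly all rows are blue in the 3 *ZK3*-KO columns, while *HLA-B*, *HLA-C*, *HLA-E*, *IFI35*, *ISG20* and *TRIM21* are above all *ZK3*-WT libraries in *ZK3*-KO replicate 3.

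Taken library by library, most members lay below the range of the 3 *ZK3*-WT libraries. In *ZK3*-KO replicate 1 this held for 41 of the 44 members (33.1% of all tested genes), in replicate 2 for 37 (38.0%) and in replicate 3 for 37 (37.9%). All 11 antigen presentation genes lay below the *ZK3*-WT range in replicates 1 and 2, and in replicate 3 there were 8 below it and 3 above it, the chains *HLA-B*, *HLA-C* and *HLA-E*. These counts are in CPM and depend on the scaling. In the deposited TPM values, *HLA-E* in replicate 3 lay below all *ZK3*-WT libraries, at 144 against 163 to 177 TPM. *HLA-B* and *HLA-C* were above them in TPM as well. Of all tested genes, 32.7%, 34.3% and 38.1% lay above the range in replicates 1, 2 and 3. Of the 33 tested interferon-stimulated genes, 30, 26 and 29 lay below the range in replicates 1, 2 and 3, and 1, 2 and 3 lay above it.

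The number of calls depended on single libraries. Without *ZK3*-WT replicate 1, 2 or 3 it was 5, 4 and 5 of the 14, where 0.288%, 0.202% and 0.244% of all tested genes fell. Without *ZK3*-KO replicate 1 it was 6 (0.307% of all) and without *ZK3*-KO replicate 2 it was 11 (0.582% of all). The FDR of the calls that were lost ranged from 0.0527 to 0.200, and the 14 fold changes were below 0 in each of these fits. Without *ZK3*-KO replicate 3, 31 members fell and none rose, among them all 14, while 7.73% of all tested genes fell and 7.41% rose. *IFIT2*, *IFI6*, *BST2* and *SAMD9* passed in the full comparison and in all 13 alternative fits. With the replicate number as a block, 19 members fell, the 14 and also *ERAP1*, *NLRC5*, *IRF9*, *IFIT1* and *IFIH1*, where 1.54% of all tested genes fell. With DESeq2, 24 members fell and none rose, again with all 14 among them, where 3.32% of all genes fell. *IFI44L*, which did not pass the filter of the full comparison, is among the 31 and the 24.

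**Figure D2:**
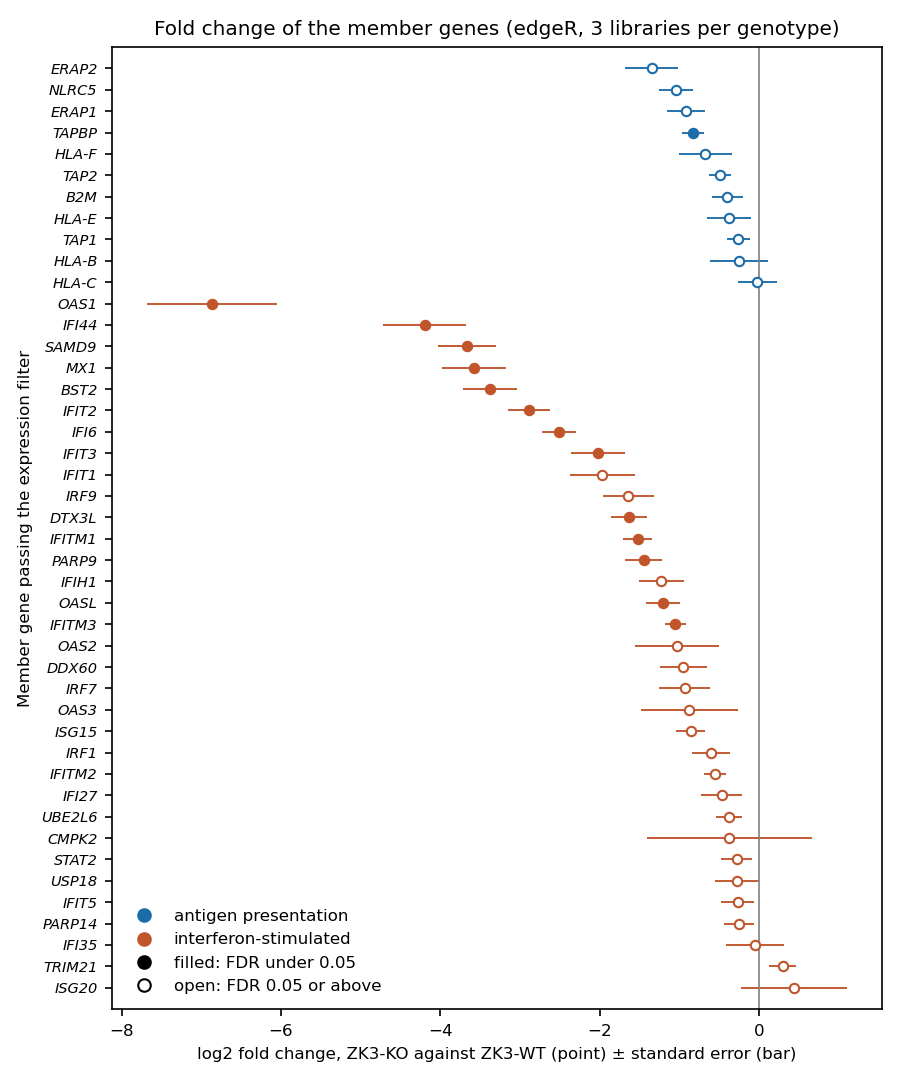
Points give the log2 fold change of *ZK3*-KO against *ZK3*-WT cells for the 44 tested members, bars the standard error, and filled points an FDR under 0.05. All 14 filled points lie left of 0, from *TAPBP* at -0.82 to *OAS1* at -6.86, and only *ISG20* and *TRIM21* lie to the right of it.

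In CPM, all 5 class I chains lay below the *ZK3*-WT range in *ZK3*-KO replicates 1 and 2, and near or above it in replicate 3. None of the 5 was called, and summed they had 995 to 1027 CPM in the *ZK3*-WT libraries and 752, 608 and 1206 CPM in the *ZK3*-KO libraries. *HLA-C*, one of the classical heavy chains that present peptides to cytotoxic T cells, had 309, 303 and 319.9 CPM in *ZK3*-WT cells and 269, 225 and 427 CPM in *ZK3*-KO cells. *HLA-B*, another classical heavy chain, had 159.6, 193 and 197 CPM in *ZK3*-WT cells and 116, 93.5 and 255 CPM in *ZK3*-KO cells. Its groups overlapped, with *ZK3*-KO replicate 3 above and replicates 1 and 2 below all *ZK3*-WT libraries (log2 fold change -0.25, SE 0.36, FDR 0.765). *HLA-E*, whose product shows signal peptides of other class I chains to natural killer cells, had 218, 194 and 203 CPM in *ZK3*-WT cells and 153, 100.3 and 222 CPM in *ZK3*-KO cells. *B2M*, which encodes the light chain shared by all class I molecules, had 291, 304 and 290.3 CPM in *ZK3*-WT cells and 203, 183 and 287 CPM in *ZK3*-KO cells. Its groups did not overlap, but in CPM replicate 3 was close to the *ZK3*-WT libraries (log2 fold change -0.40, SE 0.20, FDR 0.338). In TPM that library was farther off, at 482 against 607 to 659 TPM in the *ZK3*-WT libraries. *HLA-F*, a nonclassical heavy chain, was at 17.6, 17.6 and 16.5 CPM in *ZK3*-WT cells and 10.8, 5.78 and 15.8 CPM in *ZK3*-KO cells, with an FDR of 0.336. Without *ZK3*-KO replicate 3, the log2 fold change was -0.81 for *HLA-B* (FDR 0.0135), -0.69 for *HLA-E* (0.0349), -1.06 for *HLA-F* (0.0252) and -0.61 for *B2M* (0.01601). *HLA-C* did not pass in that fit either, at -0.32 (FDR 0.122). Reads of class I genes can be shared between near-identical copies, so the split of reads between *HLA-B*, *HLA-C*, *HLA-E* and *HLA-F* is uncertain. *HLA-F* also overlaps its antisense gene *HLA-F-AS1*, and the strand setting of the counting is not given in the sources used here.

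*TAPBP* was the antigen presentation gene that fell. It encodes tapasin, which bridges class I molecules to the peptide transporter during loading, and had 142, 121 and 125 CPM in *ZK3*-WT cells and 74.6, 76.6 and 68.4 CPM in *ZK3*-KO cells, a 1.77-fold lower mean in *ZK3*-KO cells (log2 fold change -0.82, SE 0.14, FDR 0.0343). Unlike the chains, it had nearly the same level in all 3 *ZK3*-KO libraries in CPM. In TPM its *ZK3*-KO replicate 3 was lower than the others, at 48.5, 49.0 and 33.6 TPM in replicates 1, 2 and 3. The transporter subunits *TAP2* and *TAP1* carry peptides into the endoplasmic reticulum. Their *ZK3*-KO libraries also lay below all *ZK3*-WT libraries, as held for 13.8% of all tested genes, without a call. *TAP2* had 81.2, 97.3 and 95.7 CPM in *ZK3*-WT cells and 61.2, 67.2 and 66.8 CPM in *ZK3*-KO cells (log2 fold change -0.49, SE 0.14, FDR 0.132), and *TAP1* had 53.04, 44.5 and 43.4 CPM in *ZK3*-WT cells and 43.1, 38.4 and 36.5 CPM in *ZK3*-KO cells (log2 fold change -0.26, SE 0.15, FDR 0.409). The annotated span of *TAP1* overlaps those of *PSMB9* and *PSMB8-AS1* on the opposite strand. The aminopeptidases *ERAP1* and *ERAP2*, which trim peptides for class I, were at 16.9, 24.4 and 18.8 CPM in *ZK3*-WT cells and 9.72, 13.6 and 8.53 CPM in *ZK3*-KO cells for *ERAP1* and at 3.88, 4.37 and 2.69 CPM in *ZK3*-WT cells and 1.15, 1.99 and 1.15 CPM in *ZK3*-KO cells for *ERAP2*. In neither gene did the groups overlap, and the FDR was 0.106 and 0.09502. With the replicate block it was 0.0403 and 0.0528, so that *ERAP1* was called there, and without *ZK3*-KO replicate 3 it was 0.04701 and 0.0414. *ERAP1* overlaps *CAST* on the opposite strand. *NLRC5*, the activator of class I transcription, had 12.5, 12.2 and 11.5 CPM in *ZK3*-WT cells and 6.195, 6.95 and 4.43 CPM in *ZK3*-KO cells (log2 fold change -1.04, SE 0.21, FDR 0.0579). It was called with the block (FDR 0.0461) and without *ZK3*-KO replicate 3 (0.01398). The FDR of *TAPBP* was above 0.05 without any 1 of the 3 *ZK3*-WT libraries or *ZK3*-KO replicates 1 or 2, and its highest value over the alternatives was 0.169.

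Of the 4 interferon transcription factors, none was called, although 3 had *ZK3*-KO libraries that all lay below the *ZK3*-WT libraries, as did 13.8% of all tested genes. *IRF9*, the DNA-binding part of ISGF3, had the largest difference of the 4. It was at 31.3, 24.8 and 28.6 CPM in *ZK3*-WT cells and 7.61, 5.798 and 13.8 CPM in *ZK3*-KO cells (log2 fold change -1.64, SE 0.32, FDR 0.0532), and its *ZK3*-KO libraries all lay well below the *ZK3*-WT range. It passed with the replicate block (FDR 0.0249), without *ZK3*-KO replicate 3 (0.000654), with DESeq2 and in limma on TPM (FDR 0.0152). *IRF9* lies on chromosome 14, where the median over 508 tested genes was 0.51 on the log2 scale. The part of the chromosome in the values of *IRF9* was not tested. *IRF7*, which amplifies type I interferon production, had 20.7, 13.5 and 15.2 CPM in *ZK3*-WT cells and 9.52, 4.99 and 11.4 CPM in *ZK3*-KO cells (log2 fold change -0.93, SE 0.32, FDR 0.197). *IRF1*, an early responder to interferon gamma, had 19.9, 22.2 and 24.99 CPM in *ZK3*-WT cells and 10.9, 13.7 and 19.6 CPM in *ZK3*-KO cells (log2 fold change -0.60, SE 0.24, FDR 0.237). Both passed only without *ZK3*-KO replicate 3, where the FDR was 0.0296 for *IRF7* and 0.0173 for *IRF1*. *STAT2*, a part of ISGF3, had overlapping groups at 83.2, 69.9 and 74.4 CPM in *ZK3*-WT cells and 63.8, 47.7 and 76.1 CPM in *ZK3*-KO cells (FDR 0.495).

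Beyond the members, the receptors and kinases of interferon signaling were looked at. No receptor chain was called in the full comparison. *IFNAR1* and *IFNAR2* form the receptor of type I interferon. *IFNAR1* had 58.5, 62.3 and 54.98 CPM in *ZK3*-WT cells and 57.96, 59.8 and 48.5 CPM in *ZK3*-KO cells (FDR 0.808), and *IFNAR2* had 30.9, 30.6 and 28.8 CPM in *ZK3*-WT cells and 19.4, 21.2 and 16.2 CPM in *ZK3*-KO cells (log2 fold change -0.67, SE 0.16, FDR 0.0857). *IFNGR1* and *IFNGR2* form the receptor of interferon gamma, at 38.1, 48.6 and 40.9 CPM in *ZK3*-WT cells and 28.8, 25.2 and 39.3 CPM in *ZK3*-KO cells for *IFNGR1* (FDR 0.293) and 47.04, 61.9 and 67.2 CPM in *ZK3*-WT cells and 22.7, 21.2 and 41.9 CPM in *ZK3*-KO cells for *IFNGR2* (log2 fold change -1.04, SE 0.29, FDR 0.126). With the replicate block, *IFNGR2* passed (FDR 0.0473), as it did in limma on TPM (0.0498). With DESeq2, *IFNAR2* and *IFNGR2* passed (FDR 0.0197 for both), where 3.32% of all genes fell. Without *ZK3*-KO replicate 3, *IFNAR2* (FDR 0.02965), *IFNGR1* (0.0294) and *IFNGR2* (0.00277) passed, where 7.73% of all tested genes fell. *IFNLR1*, a receptor chain of type III interferon, went the other way (log2 fold change 0.60, SE 0.21, FDR 0.1997). It had 16.8, 10.9 and 14.8 CPM in *ZK3*-WT cells and 20.9, 18.5 and 24.95 CPM in *ZK3*-KO cells. Its *ZK3*-KO libraries all lay above the *ZK3*-WT libraries, as did 12.7% of all tested genes. *IL10RB*, the other chain of that receptor, had overlapping groups (FDR 0.646). Chromosome 21, which carries *IFNAR1*, *IFNAR2*, *IFNGR2* and *IL10RB*, had a median log2 fold change of -0.39 over 144 tested genes. Of the kinases, *JAK1* was at 133, 153 and 157 CPM in *ZK3*-WT cells and 68.05, 63.3 and 105 CPM in *ZK3*-KO cells (log2 fold change -0.91, SE 0.22, FDR 0.0904). Every *ZK3*-KO library was below every *ZK3*-WT library, as held for 13.8% of all tested genes. *JAK1* passed with DESeq2 (FDR 0.00854), in limma on TPM (0.0246) and without *ZK3*-KO replicate 3 (0.00192). *JAK2* was at 14.5, 15.1 and 11.3 CPM in *ZK3*-WT cells and 12.7, 10.3 and 6.004 CPM in *ZK3*-KO cells (FDR 0.411). *TYK2* was at 78.9, 62.4 and 76.8 CPM in *ZK3*-WT cells and 96.8, 86.8 and 84.6 CPM in *ZK3*-KO cells (FDR 0.345), the only one of the 3 kinases whose *ZK3*-KO libraries all lay above the *ZK3*-WT libraries. Interferon transcripts themselves were scarce: 14 of the 21 interferon genes had no read in any library, *IFNB1* had at most 4 reads in a library, and the tested one, *IFNE*, had 65 to 149 reads per library (FDR 0.4801).

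Of the *IFIT* genes, whose products bind foreign RNA and block its translation, 2 of 4 fell, where 1.23% of all tested genes fell. The 4 genes lie next to each other on chromosome 10 (GRCh37, from 91043451 to 91181362). *IFIT2* had 4.83, 6.02 and 6.34 CPM in *ZK3*-WT cells and 0.714, 0.938 and 0.663 CPM in *ZK3*-KO cells, which is 5.73 ± 0.792 CPM against 0.772 ± 0.146 CPM (SD, n = 3) and a 7.42-fold lower mean (log2 fold change -2.89, SE 0.26, FDR 0.00469). *IFIT3* had 2.94, 4.07 and 3.53 CPM in *ZK3*-WT cells and 0.714, 1.24 and 0.631 CPM in *ZK3*-KO cells (log2 fold change -2.02, SE 0.34, FDR 0.0319, highest FDR over the alternatives 0.173). The spread within each genotype was small beside both differences. *IFIT1* had 19.8, 11.1 and 10.8 CPM in *ZK3*-WT cells and 4.47, 4.38 and 1.81 CPM in *ZK3*-KO cells (log2 fold change -1.97, SE 0.41, FDR 0.0613), with groups that did not overlap but a *ZK3*-WT replicate 1 well above the other two. It passed with the replicate block (FDR 0.0217) and without *ZK3*-KO replicate 3 (0.00884). *IFIT5*, the last of the row, had overlapping groups at 23.98, 31.3 and 28.5 CPM in *ZK3*-WT cells and 22.6, 28.9 and 18.2 CPM in *ZK3*-KO cells (FDR 0.545). The annotated spans of *IFIT1*, *IFIT2* and *IFIT3* lie across *LIPA* on the opposite strand, whose log2 fold change was -0.13.

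Among the *IFI* genes, *IFI6* and *IFI44* fell, and each *ZK3*-KO library was far below every *ZK3*-WT library. *IFI6* (chr1:27992575-27998723 on GRCh37), whose product sits in membranes of the endoplasmic reticulum and mitochondria and limits flavivirus replication, had 36.2, 25.9 and 24.7 CPM in *ZK3*-WT cells and 4.92, 4.54 and 5.71 CPM in *ZK3*-KO cells. Its mean was 28.9 ± 6.36 CPM in *ZK3*-WT and 5.06 ± 0.597 CPM in *ZK3*-KO cells (SD, n = 3), 5.72-fold lower (log2 fold change -2.52, SE 0.21, FDR 0.004298). *IFI44* had 1.57, 2.13 and 1.49 CPM in *ZK3*-WT cells and 0.171, 0.0433 and 0.0647 CPM in *ZK3*-KO cells (log2 fold change -4.20, SE 0.52, FDR 0.0116). These are low numbers, 352 reads over the 3 *ZK3*-WT libraries and 18 over the 3 *ZK3*-KO libraries, a ratio of 18.8 with an exact 95% interval of 11.8 to 32.2 that covers counting error only. Its neighbour *IFI44L* had 33 reads over the *ZK3*-WT libraries and none over the *ZK3*-KO libraries, at least 10.6-fold lower when 3 counts over the group are taken as the floor. It did not pass the filter of the full comparison and was tested in 6 of the alternatives, where it fell with DESeq2 (FDR 0.0177) and without *ZK3*-KO replicate 3 (FDR 0.0282) and had an FDR from 0.118 to 0.177 in the other 4. *IFI27*, a mitochondrial protein gene on chromosome 14, had 2.53, 2.27 and 3.004 CPM in *ZK3*-WT cells and 1.91, 1.51 and 2.22 CPM in *ZK3*-KO cells (FDR 0.389). *IFI35*, which forms complexes with NMI, was at 11.8, 8.15 and 12.6 CPM in *ZK3*-WT cells and 8.803, 6.19 and 16.5 CPM in *ZK3*-KO cells (FDR 0.961), and the library to library differences exceeded that between the genotypes. *IFI44* lost its call without any 1 of the *ZK3*-WT libraries, with a highest FDR of 0.0847 over all alternatives, and was not tested where 10 reads were asked of each library.

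The oligoadenylate synthetases make the messenger that activates RNase L, and the 4 genes of this family differed widely. *OAS1* was almost absent from *ZK3*-KO cells, at 2.004, 2.596 and 1.46 CPM in *ZK3*-WT cells and 0, 0 and 0.0486 CPM in *ZK3*-KO cells. Its 410 reads over the *ZK3*-WT libraries stood against 3 reads, all in *ZK3*-KO replicate 3, a ratio of 132 with an exact 95% interval of 44.8 to 641 for counting error only. In the test its FDR was 0.0105 (highest over the alternatives 0.0762, not tested where 10 reads were asked of each library), and its fitted log2 fold change of -6.86 depends on the prior count. *OASL*, a family member that lacks the enzyme activity and enhances RNA sensing, had 7.33, 5.58 and 7.39 CPM in *ZK3*-WT cells and 3.12, 2.81 and 2.86 CPM in *ZK3*-KO cells (log2 fold change -1.21, SE 0.21, FDR 0.0377). *OASL* was not called when all genes with at least 1 read were tested, at an FDR of 0.0527, and its highest FDR without 1 library was 0.2002. *OAS3*, next to *OAS1* on chromosome 12 and the most abundant of the family in TPM, varied most between libraries, at 106, 68.4 and 59.9 CPM in *ZK3*-WT cells and 43.1, 74.7 and 10.2 CPM in *ZK3*-KO cells (FDR 0.494). Its *ZK3*-KO replicate 2 lay inside the *ZK3*-WT range and its *ZK3*-KO replicate 3 far below it. *OAS2* was low, at 0.541, 0.285 and 0.701 CPM in *ZK3*-WT cells and 0.342, 0.288 and 0.113 CPM in *ZK3*-KO cells (FDR 0.357). *OAS1*, *OAS3* and *OAS2* lie in a row from 113343661 to 113449528 on chromosome 12 (GRCh37). Thus the row had 1 call, where 1.23% of all tested genes fell.

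*ISG15*, a ubiquitin-like protein that is joined to newly made proteins, and the most abundant member of its conjugation system in TPM, had 83.98, 55.4 and 63.8 CPM in *ZK3*-WT cells and 37.1, 37.6 and 37.5 CPM in *ZK3*-KO cells. All *ZK3*-KO libraries lay below all *ZK3*-WT libraries and were nearly equal in CPM, at 121.5, 123 and 98.45 on the TPM scale. However, *ZK3*-WT replicate 1 was far above the others and the FDR was 0.0628 (log2 fold change -0.86, SE 0.18). In limma on TPM the FDR was 0.0475, and without *ZK3*-KO replicate 3 it was 0.0183. The conjugating enzyme gene *UBE2L6* had 20.4, 23.4 and 19.5 CPM in *ZK3*-WT cells and 15.8, 14.97 and 18.1 CPM in *ZK3*-KO cells (FDR 0.268). *USP18*, which removes ISG15 and dampens the type I receptor, had overlapping groups at 7.204, 8.53 and 6.18 CPM in *ZK3*-WT cells and 5.85, 8.02 and 4.26 CPM in *ZK3*-KO cells (FDR 0.645).

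The helicase genes were lower in all *ZK3*-KO libraries, as held for 13.8% of all tested genes, without a call. *IFIH1* encodes MDA5, a sensor of long double-stranded RNA, and had 14.2, 17.3 and 12.2 CPM in *ZK3*-WT cells and 6.505, 8.12 and 4.09 CPM in *ZK3*-KO cells (log2 fold change -1.22, SE 0.28, FDR 0.0812). It passed with the replicate block (FDR 0.0263) and without *ZK3*-KO replicate 3 (0.0181). *DDX60*, a helicase that promotes RNA sensing, had 19.2, 16.03 and 14.8 CPM in *ZK3*-WT cells and 11.5, 9.23 and 5.21 CPM in *ZK3*-KO cells (FDR 0.156, and 0.0393 without *ZK3*-KO replicate 3). Of the 16 tested genes of nucleic acid sensing outside the members, 2 fell and none rose, where 1.23% of all tested genes fell and 0.817% rose. *DDX58*, which encodes the RNA sensor RIG-I, had 29.9, 31.4 and 28.3 CPM in *ZK3*-WT cells and 14.5, 14.8 and 13.1 CPM in *ZK3*-KO cells (log2 fold change -1.08, SE 0.14, FDR 0.0154). *STING1*, the adaptor that signals from cytosolic DNA, had 31.6, 24.6 and 24.6 CPM in *ZK3*-WT cells and 5.33, 4.702 and 8.32 CPM in *ZK3*-KO cells (log2 fold change -2.14, SE 0.26, FDR 0.0111), 4.41-fold lower in the mean. Both had groups far apart, with highest FDR values of 0.118 and 0.0731 over the alternatives. With the replicate block 3 genes of this list fell, where 1.54% of all tested genes fell. They were *DDX58*, *STING1* and also *TLR3*, an endosomal sensor of double-stranded RNA. *TLR3* had 2.799, 2.58 and 1.69 CPM in *ZK3*-WT cells and 0.373, 0.923 and 0.259 CPM in *ZK3*-KO cells (log2 fold change -2.17, SE 0.50, FDR 0.0825), with an FDR of 0.0372 with the block.

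The genes of membrane-bound antiviral proteins had 3 calls among 4, where 1.23% of all tested genes fell. The *IFITM* genes, whose products stop the fusion of virus with endosomes, lie in a row on chromosome 11. *IFITM3*, the most abundant of them in TPM, was at 216, 214 and 200.4 CPM in *ZK3*-WT cells and 95.5, 105 and 105 CPM in *ZK3*-KO cells, or 210.3 ± 8.57 CPM against 102 ± 5.42 CPM (SD, n = 3), 2.07-fold lower (log2 fold change -1.05, SE 0.13, FDR 0.0139). *IFITM1* had 7.59, 7.56 and 7.82 CPM in *ZK3*-WT cells and 2.56, 2.75 and 2.67 CPM in *ZK3*-KO cells (log2 fold change -1.52, SE 0.19, FDR 0.0112). Its means of 7.66 ± 0.145 CPM and 2.66 ± 0.0967 CPM (SD, n = 3) lay many times their spread apart. *IFITM2* had 60.9, 53.6 and 56.6 CPM in *ZK3*-WT cells and 38.9, 41.6 and 36.2 CPM in *ZK3*-KO cells, a smaller difference that was not called (log2 fold change -0.55, SE 0.13, FDR 0.0927) and passed without *ZK3*-KO replicate 3 (FDR 0.03799). These genes are near-identical in part, so reads can be shared between them. *BST2* (chr19:17513748-17516439 on GRCh37) encodes tetherin, which holds budding virus at the cell surface, and had 4.56, 5.45 and 5.91 CPM in *ZK3*-WT cells and 0.357, 0.447 and 0.728 CPM in *ZK3*-KO cells. Its mean fell 10.4-fold, from 5.31 ± 0.683 CPM to 0.511 ± 0.194 CPM (SD, n = 3, log2 fold change -3.38, SE 0.34, FDR 0.00559). Without 1 library, *IFITM1* and *IFITM3* reached an FDR of 0.0862 and 0.107, while *BST2* stayed at or under 0.0454.

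*PARP9* and *DTX3L*, whose products form a complex that modifies histones and enhances interferon signaling, fell together. *DTX3L* had 42.8, 58.4 and 44.4 CPM in *ZK3*-WT cells and 14.9, 19.9 and 12.2 CPM in *ZK3*-KO cells (log2 fold change -1.63, SE 0.23, FDR 0.0194), and *PARP9* had 36.2, 32.9 and 24.6 CPM in *ZK3*-WT cells and 12.03, 13.5 and 8.79 CPM in *ZK3*-KO cells (log2 fold change -1.45, SE 0.23, FDR 0.0275). The pair lies head to head on chromosome 3, and the annotated spans overlap by 240 bases on opposite strands. *PARP14*, a mono-ADP-ribosyltransferase gene nearby on the same chromosome, had overlapping groups at 47.6, 53.5 and 48.9 CPM in *ZK3*-WT cells and 42.8, 51.2 and 32.1 CPM in *ZK3*-KO cells (FDR 0.532). Leaving out *ZK3*-KO replicate 2 took *PARP9* above 0.05, as did *ZK3*-KO replicate 1 and each *ZK3*-WT library, and its highest FDR was 0.154. *DTX3L* kept its call without *ZK3*-KO replicate 2 and lost it without *ZK3*-KO replicate 1 or any *ZK3*-WT library, with a highest FDR of 0.113.

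Among the other antiviral effectors, *SAMD9* and *MX1* fell by large factors. *SAMD9* (chr7:92728826-92747336 on GRCh37), a restriction factor for poxviruses that acts on translation, had 25.2, 23.8 and 15.4 CPM in *ZK3*-WT cells and 2.5, 1.44 and 1.13 CPM in *ZK3*-KO cells, 12.7-fold lower in the mean (log2 fold change -3.66, SE 0.36, FDR 0.00559). *MX1*, a dynamin-like GTPase that traps viral nucleocapsids, had 2.96, 4.76 and 3.75 CPM in *ZK3*-WT cells and 0.186, 0.303 and 0.469 CPM in *ZK3*-KO cells, 11.97-fold lower (log2 fold change -3.58, SE 0.41, FDR 0.00977). It lost its call without *ZK3*-WT replicate 2 or 3 (highest FDR 0.0668). Chromosome 21, where *MX1* lies, had a median log2 fold change of -0.39, and its part in the values of *MX1* was not tested. The neighbour of *SAMD9*, *SAMD9L*, had 35 reads over the *ZK3*-WT libraries, most of them in replicate 2, and none over the *ZK3*-KO libraries, at least 11.2-fold lower at the floor of 3 counts over the group. *XAF1*, a gene of apoptosis control, had 11 reads against none (at least 3.53-fold). Both bounds pool the reads of a group and do not measure the spread between libraries. Both genes had 0 reads in *ZK3*-WT replicate 1, so their groups overlapped. Neither was called in an alternative, with an FDR of 0.099 and 0.309 for *SAMD9L* and of 0.407 for *XAF1*. *RSAD2*, which encodes viperin, had 23 reads against 11, a ratio of 2.02 with an exact 95% interval of 0.944 to 4.58. *CMPK2*, next to *RSAD2*, had 0.9701, 0.556 and 0.543 CPM in *ZK3*-WT cells and 0.4503, 1.14 and 0 CPM in *ZK3*-KO cells (FDR 0.884), with 0 reads in *ZK3*-KO replicate 3 and its highest level in *ZK3*-KO replicate 2.

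The members above 0 in fold change were *TRIM21* and *ISG20*, and neither was called. *TRIM21*, a cytosolic antibody receptor, was the only member whose *ZK3*-KO libraries all lay above the *ZK3*-WT libraries in CPM, at 12.6, 11.1 and 9.93 CPM in *ZK3*-WT cells and 14.6, 13.9 and 12.9 CPM in *ZK3*-KO cells (log2 fold change 0.30, SE 0.17, FDR 0.39). In TPM its groups overlapped, at 13.6, 12.4 and 10.7 TPM in *ZK3*-WT cells and 15.7, 15.0 and 11.1 TPM in *ZK3*-KO cells. *ISG20*, an exonuclease, was at 6.6, 7.92 and 9.997 CPM in *ZK3*-WT cells and 6.41, 2.97 and 23.9 CPM in *ZK3*-KO cells (FDR 0.774). Its mean in *ZK3*-KO cells was set by replicate 3, and without that library its log2 fold change was -0.80 (FDR 0.1296).

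Averaged over genes, interferon-stimulated members differed more than antigen presentation members in each *ZK3*-KO library. For each library the mean of log2(CPM + 1) over the tested members of a class was taken relative to the *ZK3*-WT mean. The antigen presentation average (11 genes) was -0.62, -0.71 and -0.39 in *ZK3*-KO replicates 1, 2 and 3, or -0.58 ± 0.17 (SD, n = 3). The interferon-stimulated average (33 genes) was -0.98, -0.98 and -1.05, or -1.004 ± 0.041. Among *ZK3*-WT libraries the averages stayed between -0.056 and 0.059. The interferon-stimulated minus the antigen presentation average was -0.36, -0.26 and -0.66 in *ZK3*-KO replicates 1, 2 and 3, the widest gap being in replicate 3, and -0.43 ± 0.21 (SD, n = 3) in the mean. Since the classes hold genes of different abundance, the gap also depends on the pseudocount, and it was -0.63 in the mean with a pseudocount of 0.25 in place of 1. In reads, antigen presentation genes went from 0.135 ± 0.00076% of all reads in *ZK3*-WT to 0.101 ± 0.023% in *ZK3*-KO cells (SD, n = 3), and interferon-stimulated genes from 0.0936 ± 0.0077% to 0.0488 ± 0.0043%. In log2 fold change, the medians were -0.49 for antigen presentation and -1.03 for the interferon-stimulated genes. The count of calls was 1 of 11 and 13 of 33, where 1.23% of all tested genes fell. Without *ZK3*-KO replicate 3, it was 9 of 11 and 22 of 34, with *IFI44L* tested as well, where 7.73% of all tested genes fell.

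**Figure D3:**
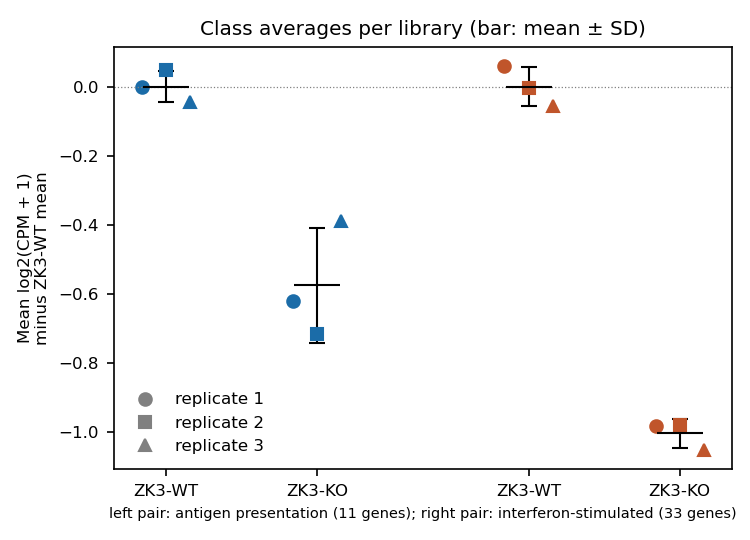
The vertical axis gives the mean log2(CPM + 1) of a class minus its *ZK3*-WT mean for each of the 6 libraries, with 1 marker shape per replicate number and bars for mean ± SD. The *ZK3*-KO libraries lie at -0.39 to -0.71 for the 11 antigen presentation genes, with replicate 3 the highest, and at -0.98 to -1.05 for the 33 interferon-stimulated genes.

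Per transcript length, the members spanned several orders of magnitude, and those that fell ranged in *ZK3*-WT cells from *IFITM3* at the top to *IFI44* at 1.17 TPM. On the TPM scale deposited by the authors, *IFITM3* was the highest in *ZK3*-WT cells at 728 ± 36.9 TPM, followed by *B2M* at 631 ± 26.6 TPM, *HLA-C* at 426 ± 8.46 TPM and *HLA-B* at 252 ± 31.3 TPM (SD, n = 3). *HLA-B* and the next gene in the order, *ISG15* at 224 ± 44.96 TPM, did not differ beyond their spread. In *ZK3*-KO cells the order at the top was *B2M* at 438 ± 45.2 TPM, *HLA-C* at 377 ± 80.2 TPM and *IFITM3* at 324 ± 34.2 TPM, and these neighbours did not differ beyond their spread. *IFI6* went from 74.5 ± 15.4 TPM, close to *TAPBP* at 81.7 ± 5.98 TPM, to 11.8 ± 0.594 TPM, where *TAPBP* had 43.7 ± 8.75 TPM. *BST2* went from 11.2 ± 1.51 TPM to 0.956 ± 0.233 TPM, and *SAMD9* from 6.67 ± 1.68 TPM to 0.494 ± 0.248 TPM. The members at the bottom of the order in *ZK3*-WT cells were *RSAD2*, *IFI44L*, *SAMD9L* and *XAF1*, all under 0.1 TPM, a level at which the depth could not show a difference of small size.

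**Figure D4:**
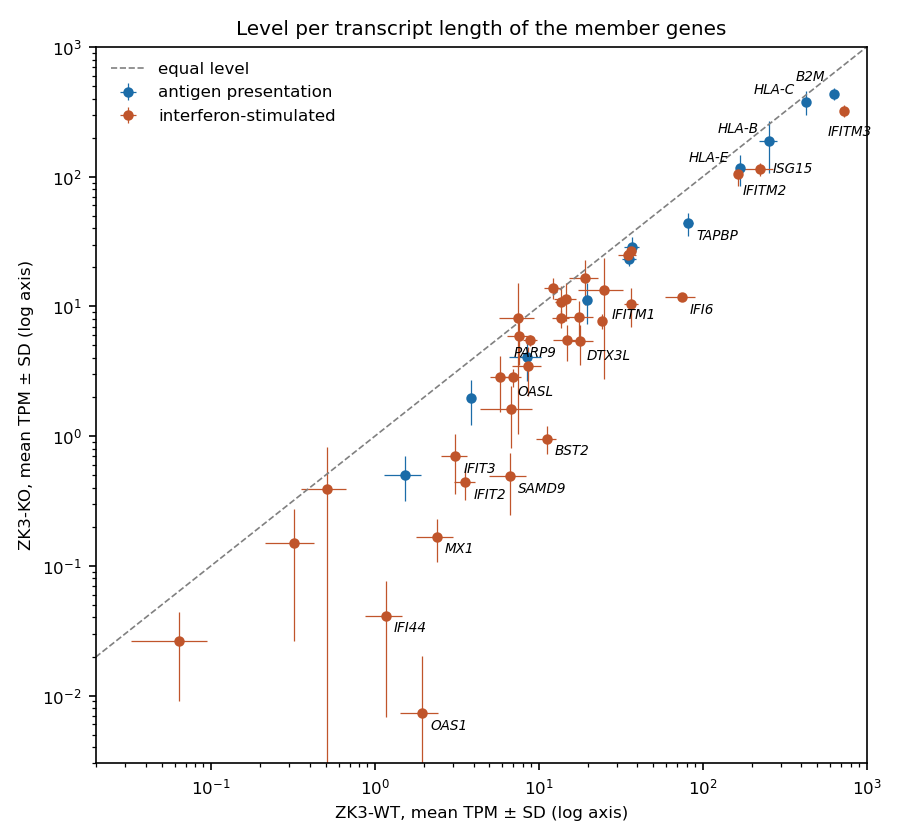
Each point is 1 member with its mean TPM in *ZK3*-WT cells (horizontal) and in *ZK3*-KO cells (vertical), both on log axes, with bars for the SD over 3 libraries; *IFI44L*, *SAMD9L* and *XAF1* are at 0 in *ZK3*-KO cells and not drawn, and some lower bars run past the axis. *OAS1*, *IFI44*, *MX1*, *SAMD9* and *BST2* lie farthest below the dashed line of equal level, while *HLA-B* and *HLA-C* lie near it.

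In the full comparison, none rose in the lists of related genes described here. Of 12 tested genes of antigen presentation outside the members, 7 had a fold change below 0 and 5 above it, with a median of -0.12. Without *ZK3*-KO replicate 3, 2 of them fell and 1 rose, where 7.73% of all tested genes fell and 7.41% rose. In the full comparison 2 fell, where 1.23% of all tested genes fell, the share that also stands against the counts of the next lists. *PSMB9*, an immunoproteasome subunit that shares its promoter region with *TAP1*, had 5.93, 5.51 and 4.81 CPM in *ZK3*-WT cells and 1.43, 1.298 and 0.696 CPM in *ZK3*-KO cells (log2 fold change -2.24, SE 0.32, FDR 0.0204), and *PSME1*, a proteasome activator subunit, had 98.3, 85.9 and 89.2 CPM in *ZK3*-WT cells and 46.1, 45.8 and 54.4 CPM in *ZK3*-KO cells (log2 fold change -0.90, SE 0.14, FDR 0.0278). *PSME1* lies on chromosome 14, where the median log2 fold change was 0.51. Of 11 tested MHC class II genes, all had a fold change below 0, with a median of -1.11, and 1 was called: *HLA-DRA*, which encodes the alpha chain of HLA-DR, at 3.82, 5.06 and 2.79 CPM in *ZK3*-WT cells and 0.606, 0.779 and 1.28 CPM in *ZK3*-KO cells (log2 fold change -2.13, SE 0.38, FDR 0.0391). Of 40 tested further interferon-stimulated genes, 29 had a fold change below 0 and 11 above it, with a median of -0.36 over the list, and 3 fell. *APOBEC3G*, a cytidine deaminase that restricts retroviruses, had 3.18, 8.35 and 5.86 CPM in *ZK3*-WT cells and 0.264, 0.202 and 0.162 CPM in *ZK3*-KO cells, 27.7-fold lower (log2 fold change -4.78, SE 0.45, FDR 0.00544), and passed in all 13 alternative fits. *PARP12*, an ADP-ribosyltransferase gene, had 24.9, 31.2 and 28.3 CPM in *ZK3*-WT cells and 7.59, 12.5 and 10.6 CPM in *ZK3*-KO cells (log2 fold change -1.46, SE 0.22, FDR 0.0241), and *ZNFX1*, a helicase-like RNA sensor, had 102, 92.4 and 91.2 CPM in *ZK3*-WT cells and 46.4, 49.2 and 49.5 CPM in *ZK3*-KO cells (log2 fold change -0.98, SE 0.13, FDR 0.0154). Lower calls thus made up 39.4% of the tested interferon-stimulated members and 7.50% of the tested further interferon-stimulated genes, and the difference between the lists was not tested, since the members were chosen with results known. Without 1 library each of *DDX58*, *STING1*, *PSMB9*, *PSME1*, *HLA-DRA*, *PARP12* and *ZNFX1* lost its call at least once, with a highest FDR from 0.0731 for *STING1* to 0.194 for *HLA-DRA*. Of the marker lists, 7 of 8 epithelial, 1 of 6 leukocyte and 2 of 6 stromal and endothelial markers were tested, and none of these was called.

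**Figure D5:**
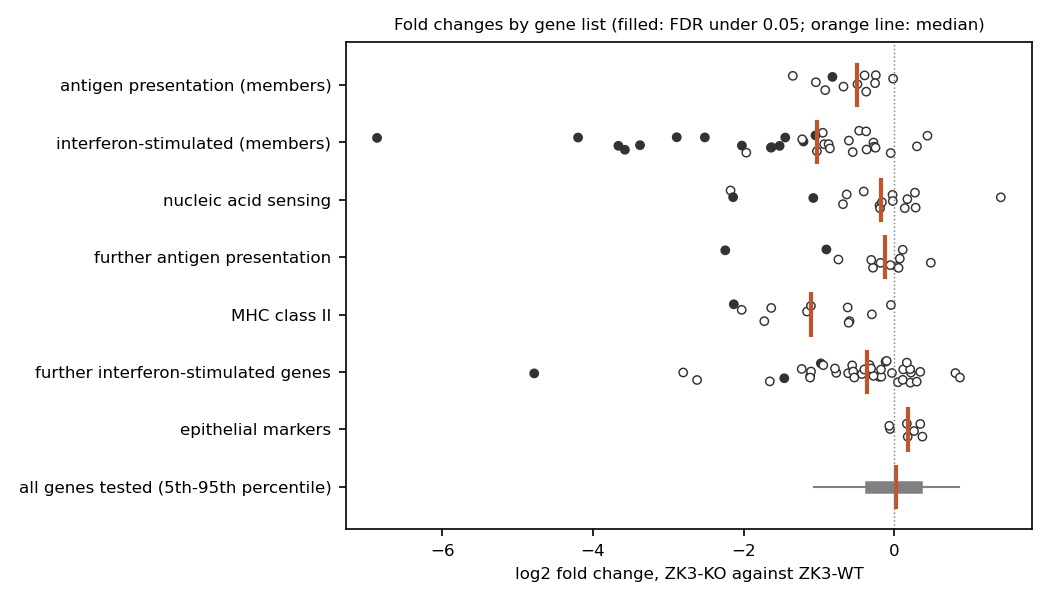
Points give the log2 fold change of each tested gene, filled where the FDR is under 0.05, with the median of the list as a line; the bottom row gives the 5th to 95th percentile (thin) and the quartiles (thick) of all 18366 tested genes. The medians lie at -0.49 and -1.03 for the 2 member classes, at -1.11 for MHC class II, between -0.12 and -0.36 for the other 3 interferon and antigen lists and at 0.18 for epithelial markers.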

How the data were processed

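Stranded poly(A) libraries of HCT116 cells were sequenced by the authors, 3 of *ZK3*-WT and 3 of *ZK3*-KO cells. The authors deposited 1 table that holds, for each library, an unnormalized read count of every gene and FPKM and TPM values, both scaled to transcript length and depth. The authors' FPKM values were not used, and the deposited TPM values served for levels between genes and 1 alternative. The processing notes name Bowtie2 2.2.5 and hg19 (GRCh37), and the methods an Ensembl annotation and an ANOVA on TPM, whereas the table lists RefSeq transcripts. Columns were matched to samples by name, with 0 columns left over.

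Differential expression was tested with edgeR 4.0.16 in R 4.3.3: filterByExpr (a minimum of about 0.147 CPM, 18366 genes left), TMM factors of 0.910 to 1.03, and the quasi-likelihood test with genotype as the only factor, adjusted by Benjamini-Hochberg over all tested genes. The alternatives were DESeq2 1.42.0, RLE factors, library totals alone, a minimum of 1 read in all or of 10 reads in each library, limma 3.58.1 on log2(TPM + 1), the replicate number as a block, and each library left out in turn. Same-numbered libraries had correlated deviations from their group means over genes (0.473, 0.124 and 0.616 for numbers 1, 2 and 3, others from -0.573 to 0.289). What the numbers mark is not given in the sources used here. Intervals for low counts are exact at 95%, and the floor is 3 counts. Scripts were tested on simulated data. Gene positions came from GENCODE on GRCh37 and promoters from RefSeq on GRCh38.p14.

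The genes named are all 48 members, related genes past the threshold in lists of the pathway, receptor and kinase genes, and *ZKSCAN3*. *TLR3*, *IFNLR1* and *IL10RB* were added after their values were seen. An item withheld from this text is not reported here. The members and lists were chosen with earlier results of these data known, so no p-value over a list is given.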

Additional observations from a re-analysis of the deposited data

How the results depend on the processing

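The fold changes of the 14 called members were below 0 in every alternative in which they were fitted. With DESeq2, 1288 genes and 24 members passed, and with 1 library left out the number ran from 49 to 2858 genes and from 4 to 31 members. The other fits gave 270 to 461 genes and 12 to 19 members. The replicate block (19 members, 461 genes) added *ERAP1*, *NLRC5*, *IRF9*, *IFIT1* and *IFIH1* and changed no other call of a member, and pairing reversed *ISG20* to -0.048 on the log2 scale. Genes with at least 1 read lost *OASL*, and limma on TPM lost *TAPBP* and *PARP9* and gained *IRF9* and *ISG15*. Without 1 library, the log2 fold change ran from -0.81 to 0.014 for *HLA-B*, from -0.32 to 0.16 for *HLA-C*, from -0.53 to 0.22 for *IFI35*, from -1.60 to 0.22 for *CMPK2* and from -0.80 to 0.89 for *ISG20*, and limma on TPM gave *ISG20* -0.17. Each change of sign is in a gene that was not called, and its cause was not tested. The interferon-stimulated average was -1.07 with library totals alone and -1.25 with a pseudocount of 0.25, which also took the gap between the classes to -0.63. Library totals alone and TPM placed the median of all genes at -0.066 and -0.082, against 0.018. *IFI44L*, *SAMD9L*, *XAF1*, *RSAD2*, *OAS1* and *IFI44* rest on few reads in *ZK3*-KO cells, so their ratios are bounded by depth.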
